A study of Mus musculus with 8 samples.

Results

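AU-rich element binding proteins are the RNA-binding proteins that attach to A- and U-rich stretches in the 3′ untranslated regions (3′ UTRs) of mRNAs, and HuR, the product of Elavl1, is the one that was deleted in this study. Members were chosen by gene symbol from a list of 10 genes (Elavl1, Zfp36, Zfp36l1, Zfp36l2, Hnrnpd, Khsrp, Tia1, Tial1, Celf1 and Ybx1), and 9 of the 10 had a row in the deposited table of 8562 genes. Tia1 had no row and was not analysed here. The tissue was epididymal white adipose tissue (eWAT) from male mice aged 6 weeks. HuR-FKO mice carried HuR flox/flox alleles and an Adipoq-Cre transgene, whose promoter is active in fat cells, while Ctrl mice were littermates with the same floxed alleles and no Cre. The floxed line had been backcrossed to C57BL/6 for a small number of generations. Each of the 2 replicates per genotype was a pool of tissue from 3 mice, split into a share for RNA-seq (mRNA) and a share for ribosome profiling, which sequences ribosome-protected fragments (RPF), so that the 8 libraries formed 4 groups of 2. Translational efficiency (TE), the ribosome load per mRNA, was the RPF level divided by the mRNA level of the same pool.

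Cells use these proteins to set how long an mRNA lasts and how often it is translated. HuR generally protects the mRNAs it binds. Zfp36 (tristetraprolin), Zfp36l1 and Zfp36l2 bind the same kind of sequence through CCCH zinc fingers and recruit the CCR4-NOT deadenylase complex, which shortens the poly(A) tail. Hnrnpd (AUF1) and Khsrp (KSRP) are mostly known for promoting decay, Tial1 (TIAR) for holding mRNAs back from translation, Celf1 for binding GU-rich elements, and Ybx1 (YB-1) for packaging mRNA as an abundant cold shock domain protein. Several of these mRNAs carry AU-rich elements themselves.

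The AU-rich stretches in the members' own mRNAs are shown here. Sequences are printed for Elavl1 and for Zfp36, Zfp36l1 and Zfp36l2, whose levels moved or came nearest to the threshold. A link between such stretches and the levels was not tested. In the annotated 3′ UTRs (GENCODE M21 transcripts, GRCm38), the pentamer AUUUA occurred 17 times in the 4218 bases of Elavl1, 3 times in the 774 bases of Zfp36, 9 times in the 1835 bases of Zfp36l1 and 5 times in the 1822 bases of Zfp36l2. The longer nonamer UUAUUUAUU occurred 8 times in Elavl1 and once each in Zfp36, Zfp36l1 and Zfp36l2. For each of these genes the 30-base stretch with the most AUUUA is given 5′ to 3′ on the mRNA strand, with DNA letters and this pentamer in capitals.
Elavl1, chr8:4285777-4285806, minus strand: ttATTTATTTATTTATTTAtttttATTTAt
Zfp36, chr7:28376956-28376985, minus strand: tttATTTAtgacgactttATTTAttgtatt
Zfp36l1, chr12:80108433-80108462, minus strand: agcttATTTAacttatcaaaacgtATTTAt
Zfp36l2, chr17:84184923-84184952, minus strand: aatatgaaaaactATTTAacttATTTAtta

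In the remaining members, AUUUA occurred 5 times in the 2962 bases of the Celf1 3′ UTR, 3 times in the 2756 bases of Tial1, once in the 1642 bases of Khsrp, and was not found in the 362 bases of Hnrnpd or the 418 bases of Ybx1. No UUAUUUAUU was found in these 5 genes. Among the 8222 table genes with an annotated 3′ UTR of at least 30 bases, 66.7% held an AUUUA and 6.36% held a UUAUUUAUU. Among table genes with a 3′ UTR within 20% of the length of that of Elavl1, the median count of AUUUA was 7, against the 17 of Elavl1. The corresponding medians were 1 beside the 3 of Zfp36, 3 beside the 9 of Zfp36l1 and 3 beside the 5 of Zfp36l2. For the remaining members they were 5 beside the 5 of Celf1, 5 beside the 3 of Tial1, 2 beside the 1 of Khsrp, and 0 for Hnrnpd and Ybx1. Motifs were searched on the mRNA strand with overlaps counted. UAUUUAU, which lies within the nonamer, occurred 8 times in Elavl1, 3 times in each of the Zfp36 family members and 1 time in Tial1. It was not found in the other members. These counts describe letters and do not locate bound sites.

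Values were RPKM, which relate the reads on a coding sequence to its length and to library depth, and reads were recovered from them as whole numbers. The mRNA libraries held 5223721 to 8060054 coding reads and the RPF libraries 531966 to 1311977, with HuR-FKO RPF replicate 2 the shallowest. Members had 213 to 5585 reads per mRNA library but only 11 to 117 per RPF library, so the RPF and TE values are far less precise. Tested by limma with Benjamini-Hochberg adjustment at 0.05 over 8562 genes, 642 genes were higher and 560 lower in mRNA in the libraries labelled HuR-FKO, 28 were higher and 10 lower in RPF, and 1, Stk38, differed in TE. Stk38 is outside the member list and was noticed from its value. All 9 adipocyte markers were present. Summed mRNA RPKM of 8 macrophage markers was 1126 to 1235 in Ctrl and 1415 to 1486 in HuR-FKO, with 4 of 8 higher by the test, and that of 5 red blood cell markers was 7656 to 11254 in Ctrl, against 3286 to 5496 in HuR-FKO, with 4 of 5 lower. The adipocyte sum was 59424 to 60294 in Ctrl and 71435 to 74375 in HuR-FKO, with 1 of 9 higher and 1 lower. The endothelial sum was 497 to 864 in Ctrl and 692 to 801 in HuR-FKO, the fibroblast and preadipocyte sum 3281 to 3794 and 3645 to 3838, and the mesothelial sum 78.1 to 148 and 107 to 117, and no gene of these 3 lists passed. Of 3 skeletal muscle markers 1 had a row, and no row was found for Adgre1 among the macrophage markers or for any of the 5 lymphocyte and 4 epididymis markers.

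Elavl1, the targeted gene (NM_010485, chr8:4285382-4325413, minus strand), came first as a check of the genotype labels. Its mRNA level was 40.8 and 49.8 RPKM in the Ctrl libraries and 41.6 and 43.3 RPKM in those labelled HuR-FKO. Both HuR-FKO values lay between the Ctrl values. The log2 difference was -0.08 ± 0.13 (SE, n = 2 per genotype, limma adjusted p = 0.70), with a 95% interval of -0.38 to 0.21. The RPF level was 64.6 and 81.8 RPKM in Ctrl and 56.0 and 63.3 RPKM in HuR-FKO, a log2 difference of -0.28 ± 0.20 that did not pass (limma adjusted p = 0.67), although both HuR-FKO values lay below both Ctrl values. Which exons Cre removes is not given in the sources used here, while the values cover the whole coding sequence and eWAT also holds cells in which Adipoq-Cre is not active. Elavl1 mRNA in these libraries is thus no check of the labels for or against, and each direction below is that of the libraries as labelled. In bulk tissue, fewer cells of a type and less RNA per cell cannot be told apart.

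**Figure D1:**
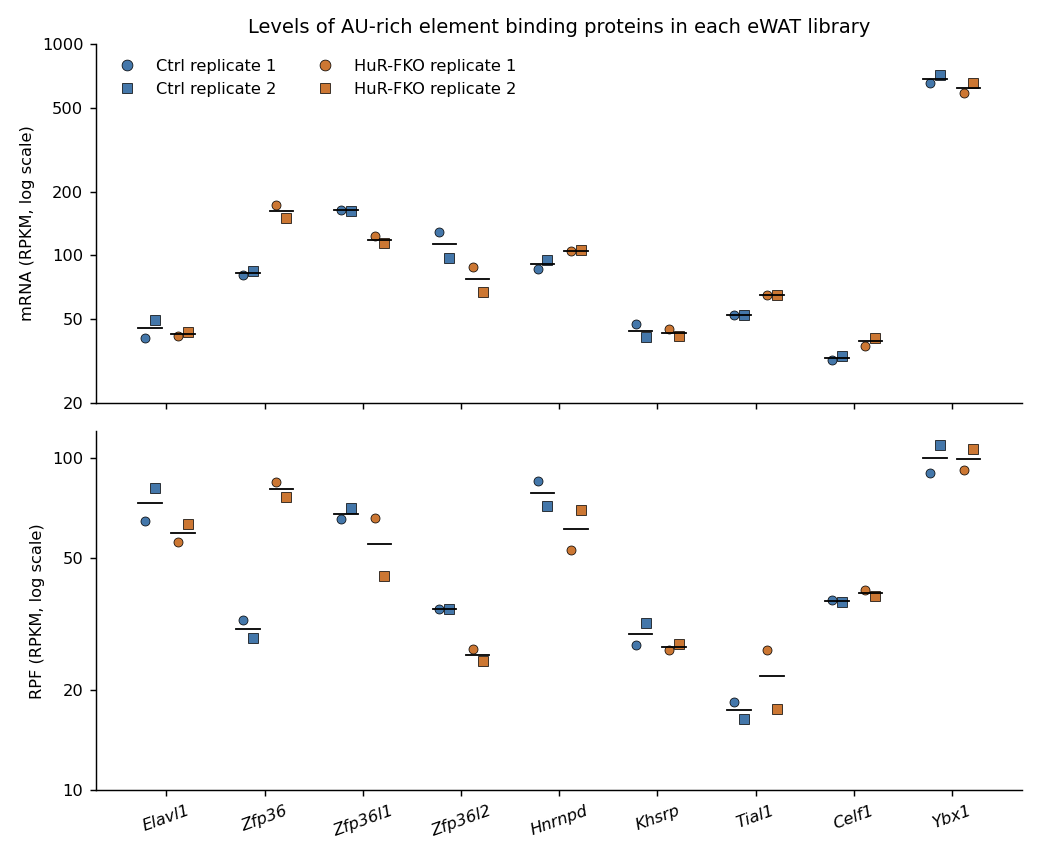
mRNA level (upper panel) and RPF level (lower panel) of the 9 members in RPKM on log axes, with 1 point per library (circles replicate 1, squares replicate 2, blue Ctrl, orange HuR-FKO) and a bar at the mean of 2. Zfp36 is the gene whose HuR-FKO points stand farthest above its Ctrl points in both panels, with mRNA means of 82.7 and 161 RPKM, while the Elavl1 mRNA points of the 2 genotypes overlap.

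In mRNA, 1 of the 9 members was higher (Zfp36) and 1 lower (Zfp36l1) in the libraries labelled HuR-FKO, and 7 did not pass. Over all genes tested, 7.5% were called higher and 6.54% lower in mRNA, so the members' counts of 1 in each direction are near what the whole table shows. The libraries of the 2 genotypes did not overlap in mRNA for 7 of 9 members, against 60.3% of all genes, and in RPF for 5 of 9, against 41.8% of all genes. In RPF, Zfp36 was the 1 member called higher, where 0.327% of all genes were, and no member was called lower, where 0.117% of all genes were. No member reached an unadjusted p under 0.05 in the lower direction in RPF, and limma-voom on the recovered reads called none lower either. The median log2 difference of the 9 members was -0.03 in mRNA (0.02 over all genes) and -0.13 in RPF (-0.05 over all genes). With 2 libraries against 2, an exact two-sided permutation test of a single gene cannot go below p = 0.333, which was the value for every member whose libraries did not overlap.

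Zfp36 encodes tristetraprolin, a short-lived decay factor that hormones and inflammatory signals induce. Zfp36 (NM_011756, chr7:28376784-28380253, minus strand) had mRNA levels of 80.8 and 84.6 RPKM in Ctrl and 173 and 150 RPKM in HuR-FKO. Both HuR-FKO libraries lay above both Ctrl libraries, and the ratio of the means was 1.95. The log2 difference was 0.95 ± 0.12 (SE, n = 2 per genotype, limma adjusted p = 0.0010), with a 95% interval of 0.69 to 1.22. Its RPF level was 32.6 and 28.8 RPKM in Ctrl and 85.0 and 76.4 RPKM in HuR-FKO, so that again no value overlapped. Behind these values were 36 and 20 reads (Ctrl) against 107 and 39 reads (HuR-FKO). The ratio of the RPF means was 2.63, and the log2 difference was 1.37 ± 0.20 (SE, limma adjusted p = 0.033).

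The higher mRNA level of Zfp36 passed under 14 of 14 processing alternatives, with log2 differences of 0.85 to 1.09. The RPF call passed under 11 of 14. It was lost when HuR-FKO replicate 1 was left out (log2 difference 1.29, limma adjusted p = 0.13), when HuR-FKO replicate 2 was left out (1.44, limma adjusted p = 0.12), and when the spread was not modelled on the level (1.37, limma adjusted p = 0.23), while its direction held. The alternative without a filter could not differ from the reported fit, since the lowest value in any library was 1.00 RPKM. Summed macrophage and adipocyte marker mRNAs were also higher in the HuR-FKO libraries and the red blood cell sum lower, in the ranges given above. The part of these cell types in the Zfp36 result was not tested.

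The promoter of Zfp36 is shown because this gene had the largest difference among the 9 members in both assays. The sequence is that of RefSeq (GRCm38.p6, chr7:28379179-28379478, minus strand), 5′ to 3′, with the CArG box, the motif known for binding serum response factor, in capitals. Its first base lies 58 bases before the RefSeq start on which this window is placed. The GENCODE M21 model used for the gene's bounds begins farther upstream, so that the whole window lies inside those bounds.
Zfp36 promoter: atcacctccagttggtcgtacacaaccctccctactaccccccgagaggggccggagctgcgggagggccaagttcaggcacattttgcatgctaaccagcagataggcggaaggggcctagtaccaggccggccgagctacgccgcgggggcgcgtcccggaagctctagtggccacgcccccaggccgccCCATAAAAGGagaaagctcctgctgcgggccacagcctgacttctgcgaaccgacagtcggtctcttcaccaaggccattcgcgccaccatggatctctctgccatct
Searched on both strands, a CArG box was found in 1.63% of 32851 mouse promoters of the same length. Of the 10 listed genes, Tia1 included, 9 had promoters in that set, and 2 of their 10 promoters held the box. Besides that of Zfp36 this was the promoter of Hnrnpd, whose mRNA did not pass. A match is a description of the letters only.

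Zfp36l1 and Zfp36l2 encode the sister proteins of Zfp36, which bind and destabilize AU-rich mRNAs in the same way. Zfp36l1 (NM_007564, chr12:80107754-80113013, minus strand) had mRNA levels of 165 and 162 RPKM in Ctrl and 123 and 115 RPKM in HuR-FKO. Both HuR-FKO values were below both Ctrl values, and the log2 difference was -0.46 ± 0.11 (SE, n = 2 per genotype, limma adjusted p = 0.027). The call was lost in a fit that shared its spread over all 8 libraries (limma adjusted p = 0.25) and without HuR-FKO replicate 1 (-0.51, limma adjusted p = 0.11) or replicate 2 (-0.40, limma adjusted p = 0.17). In RPF, Zfp36l1 measured 65.7 and 70.7 RPKM in Ctrl and 66.0 and 44.4 RPKM in HuR-FKO, so that the genotypes overlapped and the log2 difference of -0.33 ± 0.23 did not pass (limma adjusted p = 0.66). The annotation lists a processed pseudogene, Zfp36l1-ps, and reads that fit both copies would make this level uncertain.

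Zfp36l2 (NM_001001806, chr17:84183931-84187947, minus strand) had mRNA levels of 129 and 97.3 RPKM in Ctrl and 87.9 and 67.0 RPKM in HuR-FKO. The values did not overlap, but the Ctrl libraries differed from each other by more than the lower of them did from the higher HuR-FKO library, and the log2 difference of -0.54 ± 0.17 (SE, n = 2 per genotype) missed the threshold (limma adjusted p = 0.059). It passed under 3 of 14 alternatives, among them limma-voom on recovered reads (limma adjusted p = 0.031) and the fit without Ctrl replicate 2 (-0.75, limma adjusted p = 0.00072). The difference was smaller without Ctrl replicate 1 (-0.34, limma adjusted p = 0.15), without HuR-FKO replicate 2 (-0.35, limma adjusted p = 0.36) and after removal of a trend with length and G+C content (-0.30, limma adjusted p = 0.11). In RPF it measured 35.2 RPKM in both Ctrl libraries and 26.7 and 24.6 RPKM in HuR-FKO, a log2 difference of -0.44 ± 0.23 (limma adjusted p = 0.54). The HuR-FKO values lay below the Ctrl values in both assays, but no RPF alternative passed.

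The difference within the family is shown by adding its 3 genes in each library. Summed mRNA was 375 and 344 RPKM in Ctrl and 384 and 332 RPKM in HuR-FKO, so that the sums overlapped. Zfp36 made up 21.6% and 24.6% of that sum in Ctrl, against 45.0% and 45.3% in HuR-FKO. Zfp36l1 went from 43.9% and 47.1% of the sum to 32.1% and 34.6%, and Zfp36l2 from 34.5% and 28.3% to 22.9% and 20.2%. Zfp36l1 was thus the most abundant family mRNA in both Ctrl libraries and Zfp36 in both HuR-FKO libraries. In RPF the sum was 133 and 135 RPKM in Ctrl and 178 and 145 RPKM in HuR-FKO, and the Zfp36 share was 24.4% and 21.4% in Ctrl, against 47.8% and 52.6% in HuR-FKO. Elavl1 mRNA was 0.109 and 0.145 of the family's mRNA sum in Ctrl, against 0.108 and 0.130 in HuR-FKO, which overlap, and Elavl1 RPF was 0.484 and 0.607 of the family's RPF sum in Ctrl, against 0.315 and 0.435 in HuR-FKO. These shares follow from the levels above and are given as a description, with no test.

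**Figure D2:**
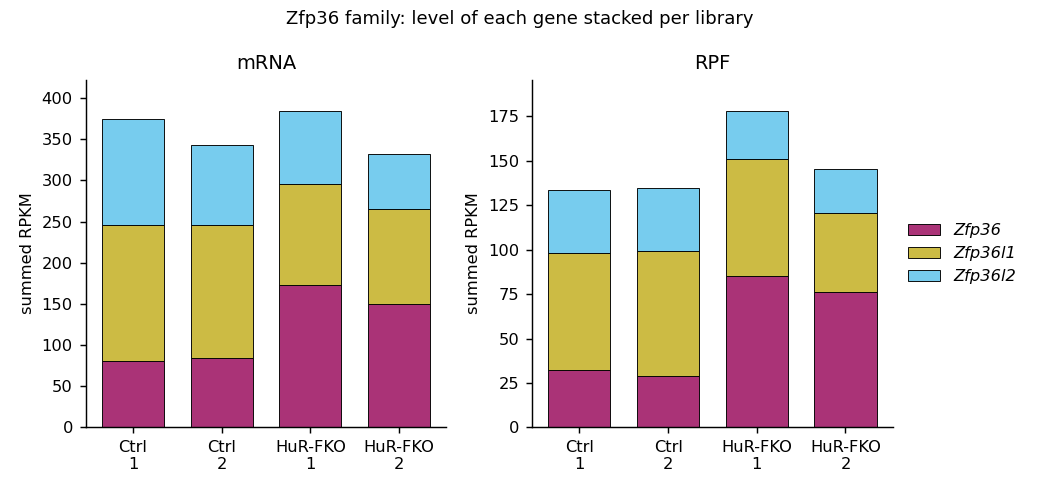
RPKM of Zfp36, Zfp36l1 and Zfp36l2 stacked in each library, mRNA on the left and RPF on the right, 1 bar per library. The mRNA bars are of like height in the 2 genotypes (332 to 384 RPKM), and the Zfp36 segment is 45.0% and 45.3% of the bar in the HuR-FKO libraries and 21.6% and 24.6% in Ctrl.

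Hnrnpd and Khsrp are the other members known for decay. Hnrnpd, which encodes the AUF1 isoforms (NM_001077267, chr5:99955935-99978938, minus strand), had mRNA levels of 86.6 and 95.5 RPKM in Ctrl and 104 and 106 RPKM in HuR-FKO, and RPF levels of 85.4 and 72.0 RPKM in Ctrl and 53.0 and 69.7 RPKM in HuR-FKO. The HuR-FKO libraries were all above the Ctrl libraries in mRNA and all below them in RPF. Neither difference passed, at log2 differences of 0.21 ± 0.11 in mRNA (limma adjusted p = 0.26) and -0.36 ± 0.21 in RPF (limma adjusted p = 0.60). Khsrp, a KH domain protein (NM_010613, chr17:57021051-57031522, minus strand), had 47.2 and 41.1 RPKM of mRNA in Ctrl and 44.7 and 41.6 RPKM in HuR-FKO. Its RPF levels were 27.4 and 32.0 RPKM and 26.5 and 27.6 RPKM. The genotypes overlapped in both assays, and the 95% interval of the log2 difference was -0.31 to 0.25 in mRNA and -0.66 to 0.41 in RPF.

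Tial1, Celf1 and Ybx1 act mainly on translation, on GU-rich elements and on mRNA packaging. Tial1 (NM_009383, chr7:128439777-128461717, minus strand) had 52.1 and 52.2 RPKM of mRNA in Ctrl and 65.0 and 64.9 RPKM in HuR-FKO. The groups stood apart, with a log2 difference of 0.31 ± 0.11 that missed the threshold over all genes (limma adjusted p = 0.096), and that fell to 0.11 (limma adjusted p = 0.49) once a trend with length and G+C content was taken out. Its RPF levels of 18.4 and 16.4 RPKM in Ctrl and 26.5 and 17.6 RPKM in HuR-FKO rested on 11 to 41 reads. The 11 reads of HuR-FKO replicate 2 had a Poisson 95% interval of 5.49 to 19.7, which covers counting error only, and the RPF difference did not pass (0.30 ± 0.29, limma adjusted p = 0.76).

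Celf1 (NM_198683, chr2:90940382-91019497, plus strand) had 32.0 and 33.6 RPKM of mRNA in Ctrl and 37.5 and 40.9 RPKM in HuR-FKO, and 37.4 and 36.9 RPKM of RPF in Ctrl and 40.2 and 38.6 RPKM in HuR-FKO. HuR-FKO values were above Ctrl values in both assays, at log2 differences of 0.25 ± 0.12 (limma adjusted p = 0.19) and 0.08 ± 0.21 (limma adjusted p = 0.93), and neither passed. The mRNA difference of Celf1 was 0.077 (limma adjusted p = 0.66) once a trend with length and G+C content was taken out. Ybx1 (NM_011732, chr4:119277981-119294604, minus strand) was the most abundant member, with 651 and 716 RPKM of mRNA in Ctrl and 588 and 651 RPKM in HuR-FKO. The highest HuR-FKO value lay just under the lowest Ctrl value, and the log2 difference of -0.14 ± 0.12 did not pass (limma adjusted p = 0.45). Its RPF levels were 90.5 and 110 RPKM in Ctrl and 92.1 and 107 RPKM in HuR-FKO and overlapped, with a log2 difference of -0.01 ± 0.18. The annotation lists a processed pseudogene, Ybx1-ps2, so that this level too is uncertain where reads fit both copies.

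**Figure D3:**
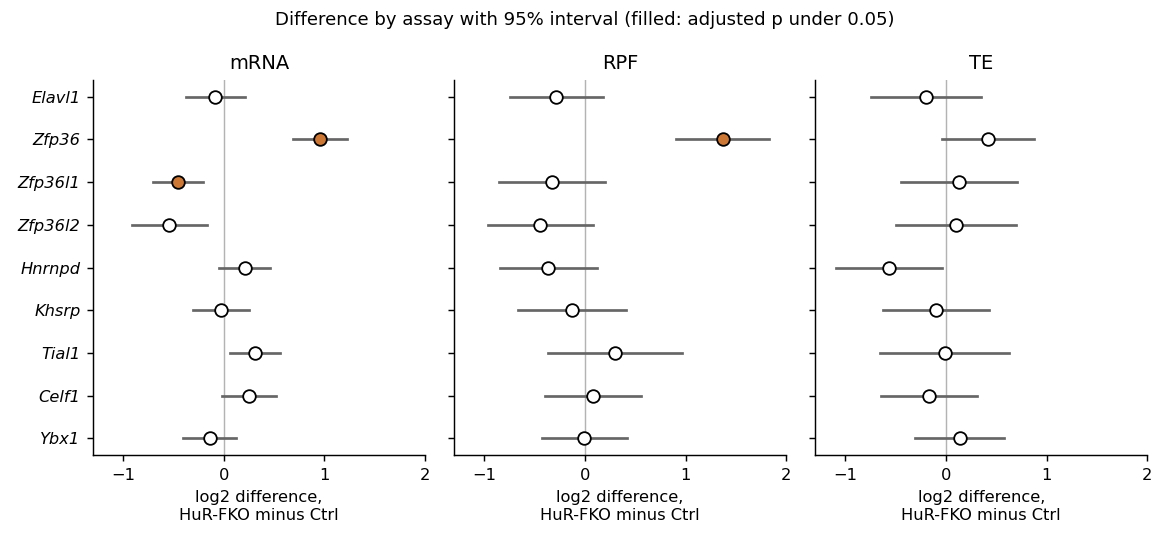
Log2 difference, HuR-FKO minus Ctrl, of each member in mRNA, RPF and TE, with the 95% interval of limma as a line and filled points where the adjusted p was under 0.05. The filled points are Zfp36 (0.95) and Zfp36l1 (-0.46) in mRNA and Zfp36 (1.37) in RPF, and no TE point is filled.

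In Ctrl mRNA the members ran from Ybx1 (683 RPKM) through Zfp36l1 (163), Zfp36l2 (113), Hnrnpd (91.0), Zfp36 (82.7), Tial1 (52.2), Elavl1 (45.3) and Khsrp (44.1) to Celf1 (32.8), each the mean RPKM of 2 libraries. Neighbours in this order did not overlap between their libraries, except Elavl1 and Khsrp. In HuR-FKO mRNA, Zfp36 moved from the fifth place to the second, and again Khsrp and Elavl1 were the only neighbours that overlapped. The order in RPF was different. In Ctrl RPF it was Ybx1 (100.2 RPKM), Hnrnpd (78.7), Elavl1 (73.2), Zfp36l1 (68.2), Celf1 (37.2), Zfp36l2 (35.2), Zfp36 (30.7), Khsrp (29.7) and Tial1 (17.4). Hnrnpd, Elavl1 and Zfp36l1 overlapped with their neighbours there, as did Zfp36 and Khsrp. Ybx1 mRNA lay at the 98.1st to 98.3rd percentile of all genes over the 4 libraries and its RPF at the 81.3rd to 84.8th.

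TE differed widely between the members, with Elavl1 and Celf1 highest and Ybx1 lowest in both genotypes. Each value here is log2(RPF/mRNA) of a pool minus the median gene of that pool. Elavl1 had the highest ribosome load of the members, at 0.94 and 1.03 in the Ctrl pools, against 0.79 and 0.91 in the HuR-FKO pools, which was the 79.3rd to 86.6th percentile of all genes. Ybx1 had the lowest, at -2.57 and -2.39 in Ctrl, against -2.31 and -2.25 in HuR-FKO, the 1.57th to 3.04th percentile. All 4 Ybx1 values lay below those of every other member, and its mean over the 4 pools of -2.38 ± 0.14 (SD) corresponds to 0.192 of the load of the median gene.

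Celf1 was also above the median gene in each pool, at 0.28 to 0.50. Tial1 (-1.53 to -0.93), Zfp36l2 (-1.60 to -1.09), Zfp36l1 (-1.05 to -0.53) and Zfp36 (-1.24 to -0.61) were below it in each pool. Khsrp, at -0.50 to -0.05, was below it as well, and Hnrnpd ranged from -0.61 to 0.26. In Ctrl, Zfp36l1, Zfp36, Tial1 and Zfp36l2 overlapped with their neighbours in the order, as did Hnrnpd and Khsrp, while Elavl1, Celf1 and Ybx1 stood apart. The TE levels have no test, since a ratio of 2 assays within 1 gene also depends on how each assay samples that gene.

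**Figure D4:**
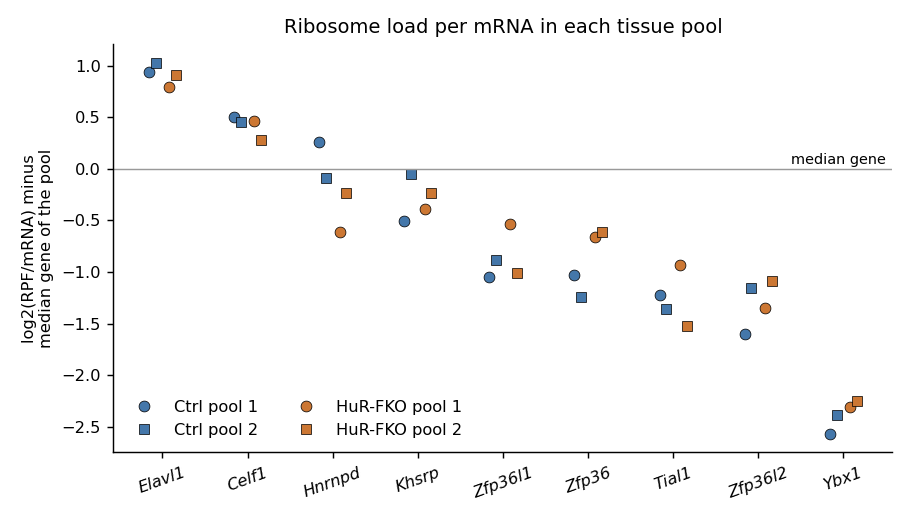
Ribosome load per mRNA of each member, as log2(RPF/mRNA) minus the median gene of the same pool, 1 point per tissue pool (circles pool 1, squares pool 2, blue Ctrl, orange HuR-FKO), in order of the mean over 4 pools. Elavl1 sits highest at 0.79 to 1.03 and Ybx1 lowest at -2.57 to -2.25, in both genotypes.

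Between genotypes no member passed in TE by limma, where 0.0117% of all genes did, and limma-voom called none either. At an unadjusted p under 0.05 there was 1 of 9 members, Hnrnpd, against 8.04% of all genes. Its TE was 0.26 and -0.09 in Ctrl, against -0.61 and -0.24 in HuR-FKO, and the interaction of genotype and assay was -0.57 ± 0.23 (limma adjusted p = 0.60) with a 95% interval of -1.09 to -0.04. Zfp36 TE was -1.03 and -1.24 in Ctrl, against -0.66 and -0.61 in HuR-FKO, and the interaction was 0.41 ± 0.20 (limma adjusted p = 0.64) with an interval of -0.04 to 0.87. The interaction is fitted on log2(RPKM + 1) and is not relative to the median gene. The pools of 4 of 9 members (Hnrnpd, Zfp36, Elavl1 and Ybx1) did not overlap between genotypes in TE, against 37.8% of all genes. For Elavl1 the TE interval was -0.75 to 0.35, and for Ybx1 -0.31 to 0.58, so that the values are compatible with differences anywhere in these ranges.

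The genes whose pattern over the 8 libraries was nearest to that of Zfp36, by Euclidean distance of log2(RPKM + 1) centred within each assay, were Rhob (distance 0.28, Pearson r = 0.99), Pck1 (0.38, r = 0.97) and Mt1 (0.42, r = 0.97). For Zfp36l1 they were Phb (0.15), Edf1 (0.15) and Rab34 (0.16), and for Zfp36l2 Htra3 (0.19), Podn (0.24) and Cd248 (0.25). These distances compare with the genes' own departures from their assay means of 1.68 for Zfp36, 0.69 for Zfp36l1 and 0.81 for Zfp36l2. The nearest genes to Elavl1 were Ctdnep1, Hint1 and Vrk1, to Hnrnpd Rabl6, Snap23 and LOC674595, to Khsrp Smarcc2, Ints5 and Vps35, to Tial1 Sf3a3, Fam188a and Dnajc5, to Celf1 Dnajc1, Adam17 and Arid4a, and to Ybx1 Igf2r, Ggact and Chd4. The own departures of these members were 0.26 to 0.60 and hold much replicate noise. The libraries share genotype, pool and depth, and the correlations are a description.

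The machinery with which these proteins work was followed in lists of known components, each read by its counts and median, and some genes stand in more than 1 list. Over all genes, an unadjusted p under 0.05 was reached by 30.6% in mRNA and 10.7% in RPF, and the lists' unadjusted counts are to be read against these shares. The lists' calls at the adjusted threshold are to be read against 7.5% higher and 6.54% lower in mRNA, and 0.327% and 0.117% in RPF. Among 16 measured deadenylases and adaptors, 3 were higher and none lower in mRNA, with a median log2 difference of 0.18 against 0.02 over all genes. The 3 were adaptors of the Tob and Btg family, which connect CCR4-NOT to mRNAs. Tob2 went from 49.5 ± 2.8 RPKM in Ctrl to 104 ± 17 RPKM in HuR-FKO (SD, n = 2; log2 difference 1.05 ± 0.14, limma adjusted p = 0.0012), Btg1 212 ± 3.6 and 309 ± 13 RPKM (0.54 ± 0.11, limma adjusted p = 0.013), and Tob1 104 ± 3.2 and 150 ± 20 RPKM (0.52 ± 0.13, limma adjusted p = 0.025). In RPF none of the 16 passed by limma or limma-voom, 2 had an unadjusted p under 0.05, and the median was 0.31 against -0.05 over all genes.

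Of 16 decapping and 5′ to 3′ decay genes, 1 was higher and 2 lower in mRNA (median 0.07). The lower ones were Lsm4 (88.7 ± 3.5 and 57.2 ± 10 RPKM, log2 difference -0.63 ± 0.14, limma adjusted p = 0.017) and Lsm3 (72.1 ± 3.5 and 52.6 ± 2.9 RPKM, -0.45 ± 0.12, limma adjusted p = 0.034), which are subunits of the Lsm ring. The higher one was Patl1, a decapping scaffold, at 13.3 ± 0.73 and 19.8 ± 3.1 RPKM (0.54 ± 0.15, limma adjusted p = 0.040). Of 16 RNA exosome genes, 1 was higher (Exosc7, 24.9 ± 3.3 and 34.8 ± 1.5 RPKM, 0.47 ± 0.13, limma adjusted p = 0.044) and none lower (median -0.05). The mRNA counts of both lists are near the shares over all genes, 7.5% higher and 6.54% lower. No gene of either list passed in RPF by limma or limma-voom, at unadjusted counts of 0 and 3.

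None of 18 stress granule genes passed in mRNA by limma, with 2 at an unadjusted p under 0.05, 2 by limma-voom and a median of 0.10, and in RPF none passed by either tool, with 1 at an unadjusted p under 0.05. Pabpc1, the poly(A) tail binding protein, was the most abundant of them (405 ± 17 RPKM in Ctrl mRNA and 360 ± 62 in that of HuR-FKO). None of 27 other RNA-binding proteins of AU-rich, U-rich or stem-loop elements passed in mRNA either, with 5 at an unadjusted p under 0.05, 2 by limma-voom and a median of 0.10, and none passed or reached an unadjusted p under 0.05 in RPF. Hnrnpk (354 ± 15 and 379 ± 11 RPKM) and Hnrnpa2b1 (263 ± 2.5 and 284 ± 15 RPKM) led that list. Of 21 kinases, phosphatases and related genes that act on these proteins, 1 was higher and 1 lower in mRNA (median 0.03). These counts are near the shares over all genes, 7.5% and 6.54%. In RPF none of the 21 passed by limma or limma-voom, with 1 at an unadjusted p under 0.05. The higher one was Dusp1, a phosphatase that shuts off p38, the kinase pathway that inactivates Zfp36 (110 ± 20 and 231 ± 12 RPKM, log2 difference 1.07 ± 0.14, limma adjusted p = 0.0011). The lower one was Ywhag, a 14-3-3 protein (389 ± 33 and 285 ± 40 RPKM, -0.45 ± 0.13, limma adjusted p = 0.047).

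Of 26 measured mRNAs with well-known AU-rich elements, 8 were higher and 1 lower in mRNA, where 7.5% and 6.54% of all genes were. The median was 0.14 against 0.02 over all genes. In RPF 1 was higher, where 0.327% of all genes were, with a median of 0.03 against -0.05. An unadjusted p under 0.05 was reached by 13 in mRNA and 7 in RPF, and limma-voom called 10 and 3. Cdkn1a, a cell cycle inhibitor, went from 49.5 ± 2.6 to 177 ± 17 RPKM in mRNA (1.82 ± 0.12, limma adjusted p = 2.7e-05). Nfkbia, Dusp1, Xiap, Birc3, Jun and Slc2a1 were also higher in mRNA. Cdkn1a, Nfkbia and Dusp1 also stand in the glucocorticoid-induced list below, and Dusp1 and Jun in the immediate early and stress list.

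Because Zfp36 is known as a gene that glucocorticoids and growth signals induce, lists of such genes stand beside it. These lists were chosen with earlier results of these data known, so their counts are a description and no independent support. Of all genes, 7.5% were called higher in mRNA and 0.327% in RPF. Of 22 measured glucocorticoid-induced genes, 19 were higher and none lower in mRNA, with a median log2 difference of 1.31 against 0.02 over all genes, and 7 were higher in RPF, with a median of 1.06 against -0.05. Sgk1, a kinase, went from 36.2 ± 0.72 to 229 ± 2.0 RPKM in mRNA (2.63 ± 0.11, limma adjusted p = 2.0e-06), and Cdkn1a is also on this list. The 7 in RPF were Ddit4, Mt2, Cebpd, Mt1, Arrdc3, Pdk4 and Tsc22d3. Of 19 immediate early and stress genes, 10 were higher and 2 lower in mRNA (median 0.60), led by Per1 (19.9 ± 0.79 and 89.1 ± 14 RPKM, 2.10 ± 0.14, limma adjusted p = 2.7e-05) and Klf4 (60.6 ± 0.30 and 166 ± 9.9 RPKM, 1.44 ± 0.11, limma adjusted p = 8.0e-05), and 1, Ctgf, was higher in RPF. The part of these responses in the Zfp36 result was not tested. In TE, no gene of any of the 9 lists passed by limma or limma-voom. An unadjusted p under 0.05 in TE was reached by 5 of 22 glucocorticoid-induced genes and 5 of 19 immediate early and stress genes. The medians of these lists in TE were -0.14 and -0.29, against -0.07 over all genes. The other lists held 0 to 2 such genes each, and the share over all genes was 8.04%.

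**Figure D5:**
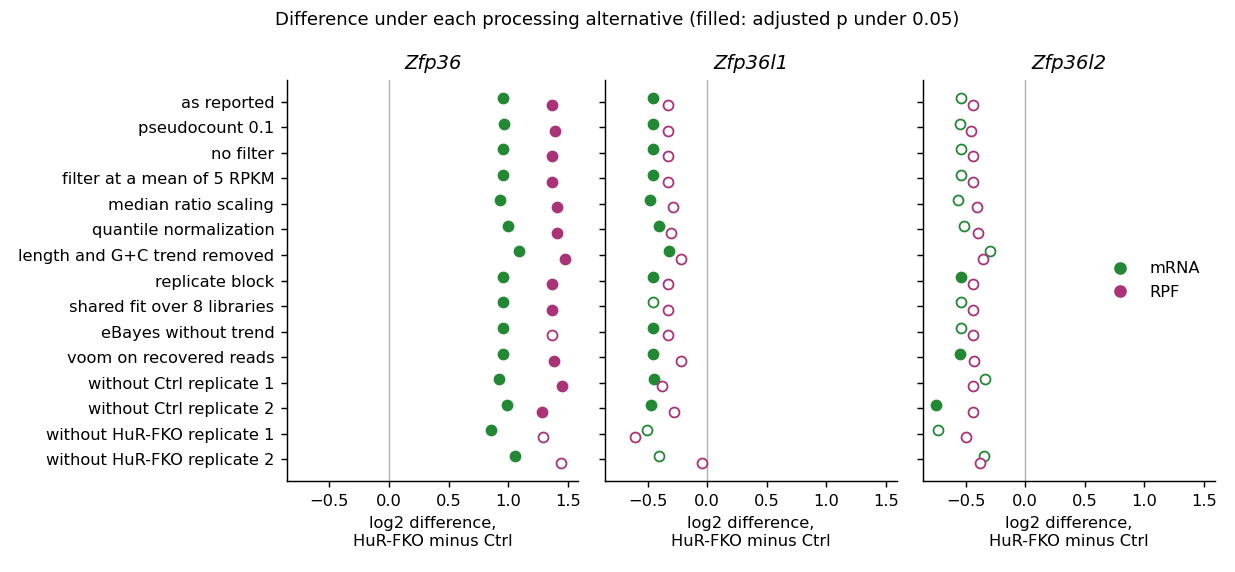
Log2 difference, HuR-FKO minus Ctrl, of Zfp36, Zfp36l1 and Zfp36l2 in mRNA (green) and RPF (purple) as reported and under 14 processing alternatives, filled where the adjusted p was under 0.05. Zfp36 mRNA is filled in every row (0.85 to 1.09), Zfp36l1 mRNA in 11 of the 14 alternatives and Zfp36l2 mRNA in 3, and each plotted value keeps the sign it has as reported.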

How the data were processed

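The members, gene lists and markers were chosen with earlier results of these data known. The authors deposited 1 table with RPKM values of 8 libraries (reads on coding sequence), rows limited to genes above 1 RPKM. Submitters' processing notes name cutadapt 1.8.3, TopHat2 2.0.9 and Bowtie 1.0.0, and the counting program, genome build and annotation were not given in the sources used here. Deposited columns of the authors' means and of their log2 and log10 ratios were not used, and 0 columns belonged to other samples. Whole reads were recovered for 8150 of 8562 genes (95.2%, tolerance 0.001 read) at a GENCODE M21 coding length minus 1 base, and for 412 genes as the smallest whole numbers in the same ratio. Tests were limma 3.58.1 (R 4.3.3, trend) on log2(RPKM + 1), a scale that understates changes of low genes, with two-sided Benjamini-Hochberg adjustment and TE as the interaction of genotype and assay over 8 libraries. Scripts used Python 3.11.15, numpy 2.4.6, scipy 1.17.1 and pandas 2.3.3. Tests were tried on simulated data, whose outcome is not reported here and is no support for any call above. The mRNA and RPF libraries of a pool share tissue, and their deviations from the group means correlated at 0.05 in Ctrl and 0.05 in HuR-FKO across 8562 genes. All members were named, with the 2 genes of each list of smallest adjusted mRNA p that passed, or else the 2 most abundant, and 3 nearest genes per member, and further list genes were named after their values were seen. Some listed genes are counted but not reported here by name. Alternatives were another pseudocount, filters, scalings, a length and G+C trend, blocks, a shared fit, voom and leaving out each pool. The alternative without a filter repeats the reported fit, because the filter at a mean of 1 RPKM removed no gene. The limma p-values rest on the spread between pools of 3 mice, which limma draws toward that of other genes of like level. They do not measure the spread of a single gene alone.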

Additional observations from a re-analysis of the deposited data

How the results depend on the processing

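Replicate numbers 1 and 2 of Ctrl and HuR-FKO share only a number (correlation of deviations 0.15 in mRNA and -0.00 in RPF). With the replicate number as a block, 2156 genes were called in mRNA (1202 as reported) with 2 members lower (1 as reported, the addition being Zfp36l2, limma adjusted p = 0.00013), and 140 in RPF (38 as reported), and the pool block in TE called 1 gene, as reported. The shared fit called 254 genes in mRNA with 0 members lower, and 202 in RPF. Without the trend, 4 genes and 0 members were called in RPF. Limma-voom called 1484 genes in mRNA with 2 members lower, 168 in RPF and 2, Stk38 and Akap12, in TE. Leaving out each replicate in turn gave 226 to 1642 calls in mRNA with 0 to 2 members lower, 15 to 107 in RPF with 0 to 1 member higher, and 0 in TE, where the lone library of a genotype is assumed to vary like the others.

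No difference that passed changed direction. Of the others, several turned sign. After removal of a trend with length and G+C content, Khsrp came to 0.039 in mRNA, Ybx1 to 0.077 in RPF, and Elavl1 to 0.021, Zfp36l2 to -0.058, Tial1 to 0.19 and Celf1 to 0.018 in TE. Under quantile normalization Ybx1 came to 0.0080 in mRNA and 0.032 in RPF and Tial1 to 0.030 in TE. Under median ratio scaling Ybx1 came to 0.034 in RPF and Tial1 to 0.050 in TE, and with limma-voom Tial1 came to 0.071 in TE. With 1 replicate left out, the range was -0.22 to 0.056 for Elavl1 mRNA, -0.13 to 0.069 for Khsrp mRNA and -0.15 to 0.13 for Ybx1 RPF. In TE it was -0.10 to 0.36 for Zfp36l1, -0.10 to 0.30 for Zfp36l2, -0.30 to 0.11 for Khsrp and -0.30 to 0.27 for Tial1. Without changing sign, the range was -0.45 to -0.12 for Elavl1, -0.61 to -0.045 for Zfp36l1, -0.56 to -0.17 for Hnrnpd and 0.013 to 0.58 for Tial1 in RPF, and Elavl1 mRNA was -0.30 once a trend with length and G+C content was taken out. The causes of these changes were not tested. With 1 RPKM added before the ratio, TE levels relative to the median gene moved by less than their spread over the 4 pools. Leaving out 1 of the 4 pools could not move them by more than that spread. Taking the mean gene in place of the median gene shifts every gene alike. Neither is a test of these levels. RPF and TE values rest on 11 to 117 RPF reads per member and on 2 pools per genotype.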
